A study of Caenorhabditis elegans with 4 samples.

Results

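The transcripts described here are those of wild-type adult *Caenorhabditis elegans* exposed to copper, measured on 1 array of copper-treated worms and 1 array of water-treated worms. A probe set, the group of short oligonucleotides that reads 1 transcript on an Affymetrix GeneChip, was included when it was a worm probe set and the brighter of its 2 signals was 100 or more. That rule kept 10921 of the 22548 worm probe sets (48.4%), which covered 8299 distinct genes where 1 gene symbol was assigned. In 10108 of them both signals reached 100, in 510 only the copper signal did and in 303 only the water signal did. The dimmest probe set kept had a brighter signal of 100, and the brightest one left out reached 99.99.

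Worms of the Bristol N2 strain were treated as 1-day-old adults, for 1 h at room temperature, with 1 mM copper sulfate or with water, and RNA came from whole animals. A second pair of arrays held *kgb-1(km21)* mutants, which carry a deletion in the gene for the stress-activated kinase KGB-1, treated in the same 2 ways. The wild-type and mutant pairs share no array. Because each condition is 1 array, no ratio below has a replicate check, no p-value or standard error is given, and values describe these libraries. In RNA from whole worms, fewer cells of a type and less RNA per cell cannot be told apart.

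Copper is a cofactor of respiratory and antioxidant enzymes and is toxic in excess, because the free ion drives oxidation and binds protein thiols. Animal cells meet an excess with export pumps, chaperones and thiol-rich proteins, and with detoxification enzymes that conjugate and remove damaged small molecules. In *C. elegans*, damage to the epidermis or gut also switches on genes for secreted antimicrobial peptides, and the p38 and KGB-1 kinase cascades are known relays of such stress.

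Signals had been scaled by MAS5, the Affymetrix algorithm that reports a linear intensity, and the trimmed mean was 500.1 on the copper array and 500.1 on the water array. The 18 bacterial and phage hybridization controls gave a mean log2 ratio, copper over water, of 0.06 with an SD of 0.18, and lay between -0.24 and 0.33. For genes with 2 or more probe sets, the robust SD of the difference between log2 ratios was 0.35 over 1728 genes. Transcripts that mark tissues were compared first, using 48 probe sets for epidermis, intestine, body wall muscle, pharynx, neurons, germ line, oocytes and sperm. The 40 of these that met the signal rule had log2 ratios between -0.76 and 0.69, so none passed 2-fold. Summed signals were 46661 with copper and 41351 with water for intestine, 27285 and 23786 for body wall muscle, and 6171 and 6053 for epidermis. They were 96542 and 90372 for oocytes and eggs, 8445 and 8194 for germ line, and 9599.7 and 9538 for neurons. The sums for pharynx and sperm were lower with copper, at 1403 with copper and 1722 with water and at 1290.5 and 1446. The lower pharynx sum rested mainly on a *myo-1* probe set, at 684 with copper and 1065 with water. That probe set lies in the block of identifiers described below, and the other *myo-1* probe set read 139 with copper and 86.1 with water. *tnc-2* read 445 with copper and 424 with water, and *myo-2* read 136 and 148. Defining transcripts of each tissue were thus present on both arrays, although 3 of the 4 sperm probe sets were below 100 on each.

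The response was narrow. Of all 10921 probe sets, 10573 (96.8%) did not pass 2-fold, and the central 95% of log2 ratios ran from -0.75 to 0.93 around a median of 0.012. Rises past 2-fold numbered 230 (2.11%) and falls 118 (1.08%). These shares are the background for each count of rises and falls in a gene list below. In 110 of the rises and 51 of the falls the dimmer signal was below 100, where MAS5 signals say little about level. With every signal below 100 raised to 100, 142 rises (1.3%) and 75 falls (0.687%) were left, of which 30 rises and 7 falls exceeded 4-fold, and 6 rises and 3 falls exceeded 8-fold. A fold is written as "at least" below where the dimmer signal was under 100 and 100 stands in for it.

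The balance of rises and falls depended on the scaling. Rises were 66.1% of the 2-fold changes with the deposited signals. Scaling both arrays to the same median moved the median of all log2 ratios to -0.123 and gave 166 rises and 190 falls (46.6% rises), and quantile normalization gave 197 rises and 153 falls (56.3% rises).

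**Figure D1:**
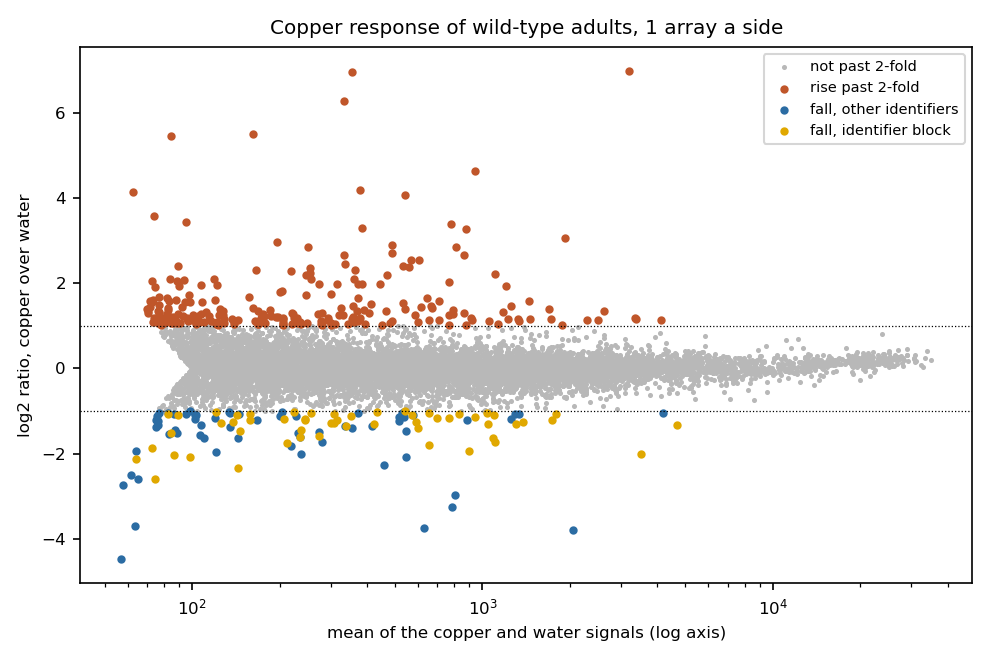
Log2 ratio of copper over water (y axis) against the mean of the copper and water signals (x axis, log scale) for the 10921 probe sets, with dotted lines at 2-fold. The 230 rises reach higher ratios than the 118 falls reach in the other direction, and 55 of the falls carry identifiers from 173000 to 175999.

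The falls were unevenly spread over the array's probe-set identifiers, and this bears on each fall named below. Identifiers from 173000 to 175999 made up 2252 of the 10921 probe sets (20.6%) but 55 of the 118 falls (46.6%), and 43 of the 75 falls with raised signals (57.3%). Inside that block 2.44% of probe sets fell and 0.977% rose, whereas outside it 0.727% fell and 2.4% rose. The robust SD of the wild-type copper ratio, over probe sets with signals of 100 or more on each of the 4 arrays, was 0.304 in the block and 0.237 outside it. In the *kgb-1* pair the same spread was 0.214 in the block and 0.2 outside it. Copper-treated *kgb-1* against copper-treated wild type gave 0.308 and 0.245, while the water arrays of the same strains gave 0.177 and 0.173. The wider spread was thus seen in each comparison that used the wild-type copper array, and the cause was not tested.

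A second probe set for the same gene, outside the block, could be read for 34 genes that fell in the block. Only 1 of these, *elt-3*, passed 2-fold there, and 28 were within 0.5 of 0 on the log2 scale. The median log2 ratio was -1.23 for the probe sets in the block and 0.01 for the others. For 24 genes with a risen probe set and another one, each counted once, 21 of the others were above 0, 5 passed 2-fold (*nhr-3*, *nhr-45*, *F59B10.4*, *cnc-7* and *oac-31*) and 13 were within 0.5 of 0. The median was 1.17 for the risen probe sets and 0.36 for the others, and it was 0.26 for the others of the 19 genes in which only 1 probe set rose. The other probe sets of risen genes could lie in the block, as for *vhp-1*, unlike those of fallen genes. For 4 genes that fell outside the block, 1 of the others passed 2-fold and 2 were within 0.5 of 0. The difference between rises and falls on this measure was not tested. A fall or rise in the block is marked as such where it is named below. Without the block, which was picked by its falls, the counts were 208 rises and 63 falls (76.8% rises).

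**Figure D2:**
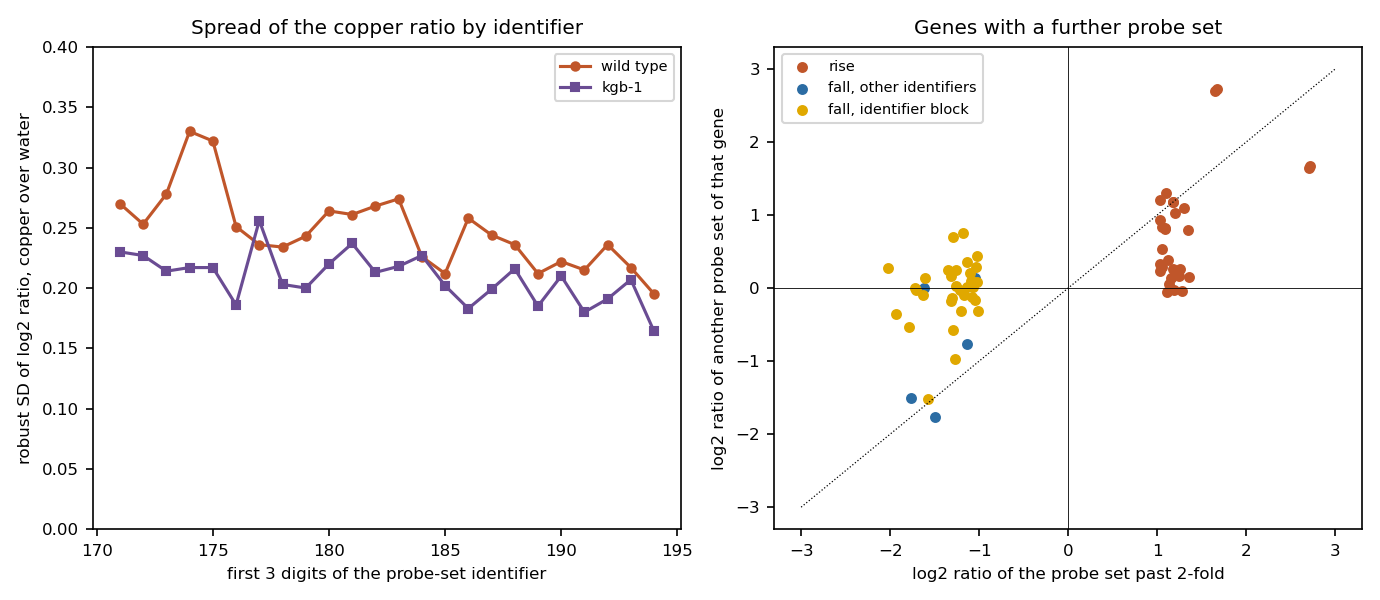
Left, robust SD of the log2 ratio of copper over water (y axis) by the first 3 digits of the probe-set identifier (x axis), for wild type (circles) and kgb-1 (squares). Right, for genes with a 2-fold change, log2 ratio of that probe set (x axis) against another probe set of that gene (y axis), with a dotted line of equality: falls in the identifier block lie around 0 on the y axis, with a median of 0.01.

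The largest rise was that of the paired genes *numr-1* and *numr-2*, which encode nuclear localized metal-responsive proteins and share 1 probe set. It read 6362 with copper and 50.9 with water, at least 63.6-fold higher. Next came *comt-4*, of a catechol-O-methyltransferase family, at 1815 with copper and 73.3 with water (at least 18.1-fold), and its relative *comt-3* rose 4.29-fold, at 587 with copper and 137 with water. Both copper signals of the *comt* pair were far above the water signals, although only *comt-3* was measurable in water.

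Several of the strongest rises belonged to genes with little known function. *F41C3.2* had signals of 1421 with copper and 136 with water (10.5-fold), and *F56D5.3* had 862 and 116 (7.42-fold). *ora-1*, named for its likeness to an antigen of the parasite *Onchocerca*, had 1586 with copper and 163 with water (9.71-fold). The brightest of this group was *srlf-34*, at 3438 with copper and 416 with water (8.27-fold). *W06H8.2*, at 703 with copper and 5.71 with water, and *C45B2.2*, at 700.1 and 71.4, could be given only as at least 7.03-fold and at least 7-fold.

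**Figure D3:**
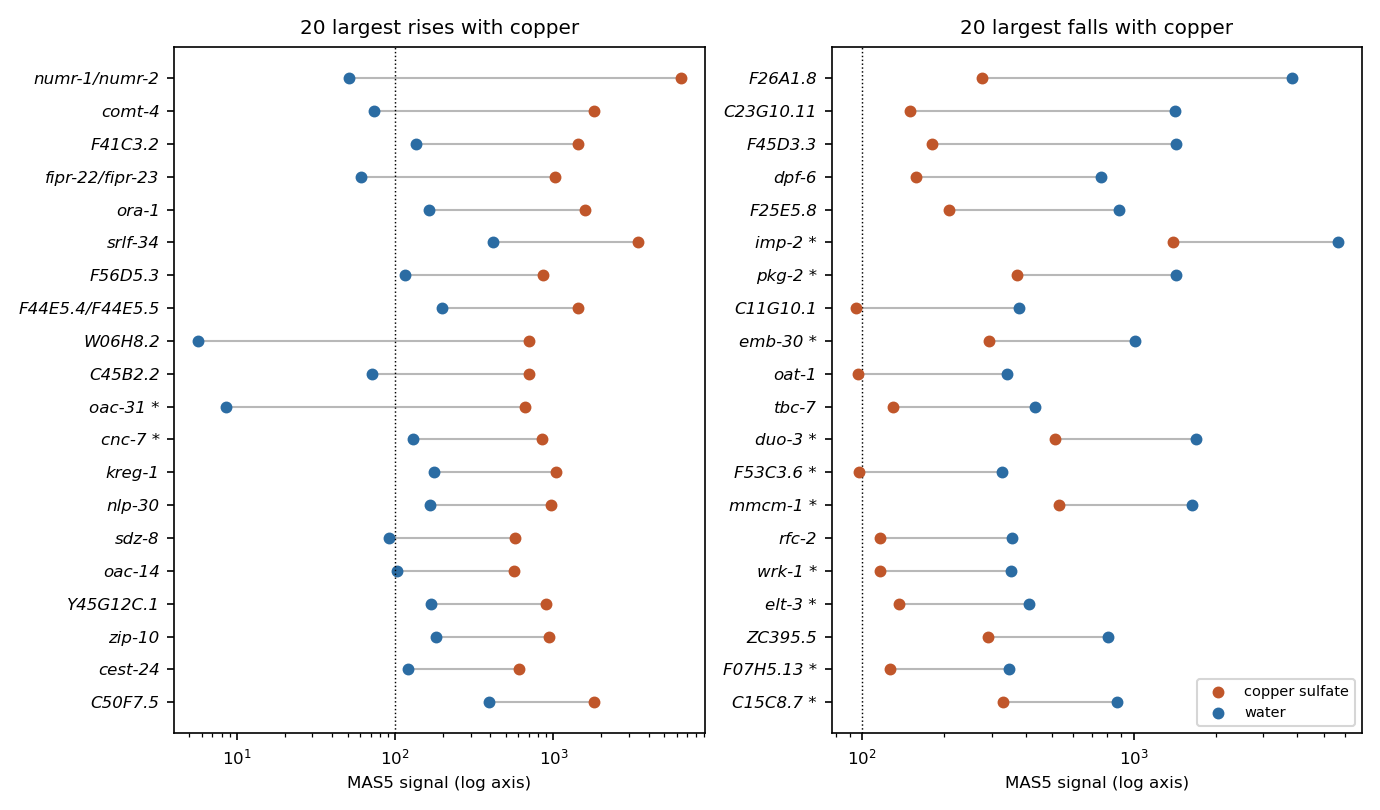
MAS5 signal with copper sulfate and with water (x axes, log scale) of the 20 largest rises and the 20 largest falls, 1 line a gene, ranked with signals below 100 raised to 100 (dotted line). Asterisks mark probe sets with identifiers from 173000 to 175999, which are 2 of the 20 rises and 10 of the 20 falls.

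Genes that handle metals were, apart from *numr-1/numr-2*, little changed. Among 11 probe sets of metal-induced genes, 2 rose past 2-fold and the median log2 ratio was -0.05, against 0.012 for all probe sets. The other rise was *cdr-4*, of the cadmium-responsive family, at 978 with copper and 442 with water (2.21-fold). Its relatives *cdr-1*, *cdr-6* and *cdr-2* had log2 ratios of 0.31, -0.07 and -0.64. The metallothioneins, small cysteine-rich proteins that bind metal ions, were not among the 2-fold changes. *mtl-2* was bright on both arrays, with 13878, 11285 and 10359.5 in its 3 probe sets with copper and 13551, 12047 and 10719.7 with water. *mtl-1* read 313 with copper and 386 with water. *pcs-1*, the phytochelatin synthase, read 423 and 412, and *hmt-1*, a transporter needed for heavy metal tolerance, read 688 and 825.

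The machinery of copper itself was also near 0. Of 12 probe sets for copper transport and delivery, none rose and 1 fell, with a median of 0.01. *cua-1*, the copper-exporting ATPase, read 415 with copper and 402 with water, and *cuc-1*, the chaperone that passes copper to it, read 1152 and 1072. *sod-1*, the copper/zinc superoxide dismutase, read 7389 with copper and 7078 with water. The cytochrome oxidase assembly factors *sco-1*, *cox-17* and *cox-11* had log2 ratios of -0.09, -0.13 and -0.21. The single fall was 1 probe set of *cutc-1*, in the identifier block, at 808 with copper and 1941 with water, while the other *cutc-1* probe set read 2751 with copper and 2315 with water.

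Zinc transporters stayed under the threshold in all 24 probe sets (median 0.1). The 3 probe sets of *ttm-1*, a zinc exporter of the cation diffusion facilitator family, had log2 ratios of 0.99, 0.94 and 0.79, and the probe set of the largest ratio read 679 with copper and 342 with water. *cdf-2*, of the same family, read 223 with copper and 126 with water. None of the 13 probe sets for iron, manganese and heme passed 2-fold in either direction, and their median was 0.02. Over all probe sets 2.11% rose and 1.08% fell, so lists of this size can hold none without differing from the rest.

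Secreted peptides of the epidermal defence had the highest medians among the 74 gene lists. These small antimicrobial peptides are known to be made by the epidermis after fungal infection or wounding. Of 9 probe sets for antimicrobial *nlp* genes, 6 rose, none fell and the median log2 ratio was 1.59, or 1.26 with signals raised. *nlp-30* had 965 with copper and 166 with water (5.81-fold), *nlp-29* had 1915 and 499 (3.84-fold), and *nlp-31* had 2177 and 724 (3.01-fold). *nlp-26* rose 3.13-fold, *nlp-24* at least 2.39-fold and *nlp-28* 2.02-fold. Not every member moved, since *nlp-27* read 979.8 with copper and 1229 with water, and *nlp-33* read 2163 and 1968.

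The caenacins, a related peptide family, had 4 of 6 probe sets up and none down (median 1.5). *cnc-7* was read by 2 probe sets, 1 in the identifier block at 844 with copper and 130.0 with water and 1 outside it at 313 and 89.7. *cnc-2* had 976 with copper and 313 with water (3.12-fold), and *cnc-4* had 3777 and 1478 (2.56-fold). *cnc-3* and *cnc-8* differed from these, with log2 ratios of -0.45 and -0.52.

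Fungus-induced peptide genes rose in 4 of 9 probe sets, with all 9 ratios above 0 and a median of 0.72. With signals raised, 3 rises were left and the median was 0.59. Probe sets of *fipr-22*/*fipr-23* and of *fipr-24* (150.1 with copper and 70.1 with water) met the signal rule only through copper. The count and median are therefore partly set by that rule. The near-identical *fipr-22* and *fipr-23* cannot be told apart by their 2 shared probe sets, which read 1019.9 and 719 with copper and 60.7 and 39.5 with water, at least 10.2-fold and at least 7.19-fold. *fipr-26* had 503 with copper and 127 with water (3.95-fold). *fip-2*, with 1023 and 927 with copper and 937 and 783 with water, stayed close to 0.

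Gut and general defence genes were less affected. Among 13 lysozyme probe sets only *lys-3* passed 2-fold, at 318 with copper and 89.9 with water (at least 3.18-fold), while *lys-1* read 6882 with copper and 4755 with water. Of 58 C-type lectin probe sets, 4 rose and 2 fell, or 2 and 1 with signals raised. *clec-41* had 1118 with copper and 462 with water (2.42-fold), and the probe set shared by *clec-67* and *clec-69* had 452 and 189 (2.39-fold). Of 29 probe sets for infection-response genes, 5 rose (2 with signals raised) and none fell, with a median of 0.13. *irg-2* had 3431 with copper and 1549.7 with water (2.21-fold) and *sysm-1* had 979 and 364 (2.69-fold). Among 16 probe sets for antibacterial factors and saposin-like proteins, which permeabilize bacterial membranes, none rose and 1 fell. That one was *abf-5*, at 87.9 with copper and 182 with water, below 2-fold once the copper signal was raised to 100.

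**Figure D4:**
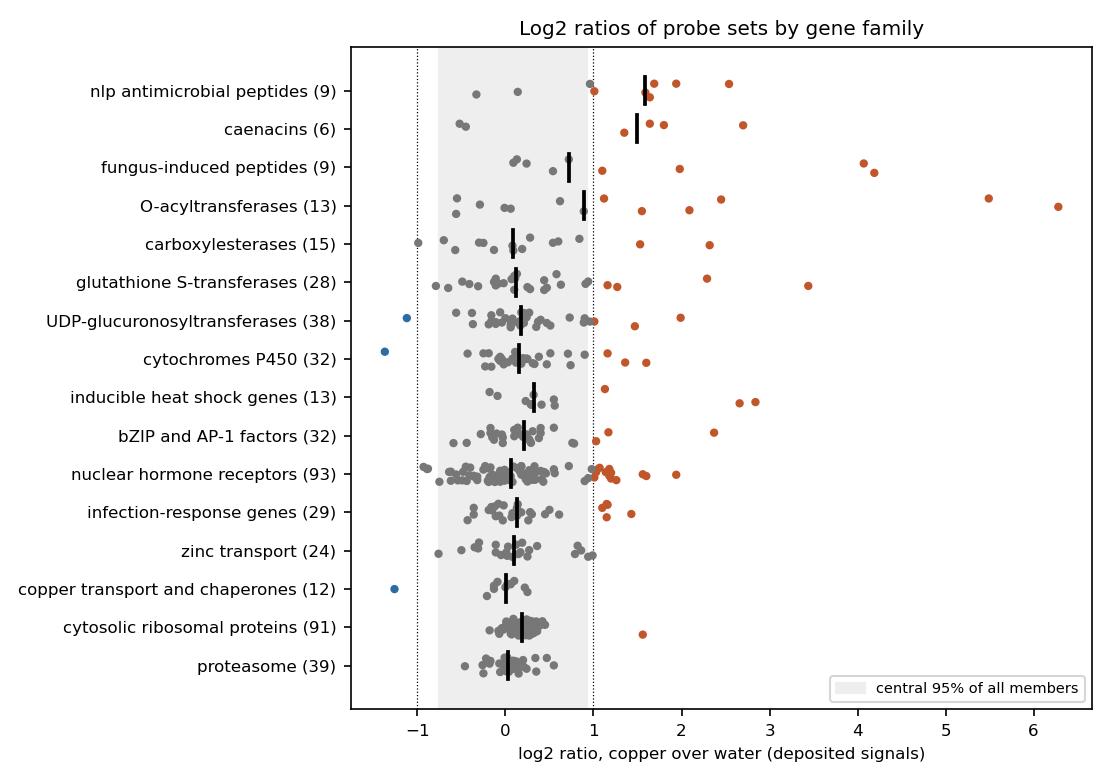
Log2 ratio of copper over water (x axis) of each probe set in 16 gene families, with the number of probe sets in brackets, the family median as a bar, 2-fold changes coloured and the central 95% of all probe sets shaded. The nlp, caenacin, O-acyltransferase and fungus-induced families have the highest medians (1.59, 1.5, 0.89 and 0.72), while copper transport genes and the proteasome sit around 0.

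Acyltransferases of the *oac* family, predicted membrane enzymes that transfer acyl groups, were detected in only 13 of 66 probe sets. Of these, 6 rose and none fell, and the median was 0.89 with deposited signals and 0.62 with signals raised. Probe sets of *oac-31*, *oac-6* and *oac-20* met the signal rule only through copper, and that of *oac-59* only through water. The count and median are therefore partly set by that rule. *oac-31* had 659 and 318 with copper in its 2 probe sets and 8.5 and 7.09 with water, at least 6.59-fold and at least 3.18-fold, the first of them in the identifier block. *oac-14* had 566 with copper and 103 with water (5.48-fold), and *oac-6* had 416 and 98.1 (at least 4.16-fold). A further member of known function is *rhy-1*, which acts in the hypoxia pathway upstream of the dioxygenase EGL-9, at 380.0 with copper and 175 with water (2.17-fold). A probe set shared by *rhy-1* and *oac-54* read 233 with copper and 152 with water, below 2-fold. *oac-46* and *oac-59* did not rise, with log2 ratios between -0.56 and -0.29.

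Enzymes of detoxification followed. Over all probe sets 2.11% rose and 1.08% fell, and counts in this and the next paragraph are read beside those shares. Of 28 glutathione S-transferase probe sets, 4 rose (3 with signals raised) and none fell, with a median of 0.12. *gst-9* met the signal rule only through copper, at 174 with copper and 16 with water. *gst-30* had 364 with copper and 74.4 with water (at least 3.64-fold), *gst-33* had 247 and 103 (2.4-fold) and *gst-13* had 2014 and 902 (2.23-fold). *gst-4*, the widely used reporter of the oxidative stress factor SKN-1, did not pass 2-fold and read 1372 with copper and 713 with water.

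UDP-glucuronosyltransferases, which attach sugar to make compounds soluble, rose in 3 of 38 probe sets and fell in 1, with 26 ratios above 0 and a median of 0.18. *ugt-13* had 437 with copper and 109.9 with water (3.98-fold) and *ugt-25* had 529 and 190.5 (2.77-fold), while *ugt-17* fell 2.18-fold, with 143 and 312. Of 32 cytochrome P450 probe sets, 3 rose and 1 fell, and the 1 rise with both signals above 100 was *cyp-14A5*, at 1137 with copper and 443 with water (2.57-fold). Carboxylesterases contributed *cest-24*, at 605 with copper and 121 with water (4.98-fold), and *cest-32*, at 789 and 273 (2.89-fold), as the 2 rises in 15 probe sets. The lipase-related *lips-5* had 405 with copper and 89.4 with water (at least 4.05-fold). *trx-3*, an intestinal thioredoxin, had 782 with copper and 297 with water (2.63-fold), and *fmo-4*, a flavin monooxygenase, had 296 and 145 (2.05-fold) in a probe set of the identifier block and a log2 ratio of 0.93 in its other.

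Heat shock genes rose in part. The inducible members had 13 probe sets, of which 3 rose and none fell, with a median of 0.32. The 2 probe sets shared by the Hsp70 genes *F44E5.4* and *F44E5.5* read 1426 and 1489 with copper and 199 and 235 with water (7.17-fold and 6.34-fold). The small heat shock genes *hsp-16.48* and *hsp-16.49* share 1 probe set, at 3138 with copper and 1436 with water (2.18-fold). Other inducible genes were under the threshold. *hsp-16.2* read 828 with copper and 622 with water, *hsp-16.41* read 655 and 531, and *hsp-70* read 382 and 259.7. Constitutive chaperones gave no change past 2-fold in 64 probe sets (median -0.02) and chaperones of the endoplasmic reticulum none in 30 (median 0.09). Over all probe sets 2.11% rose and 1.08% fell. The mitochondrial chaperones *hsp-6* and *hsp-60*, each read by 2 probe sets, had log2 ratios between 0.47 and 0.51.

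Signalling genes were mostly dim. *sek-1*, the kinase that activates p38 in the immune pathway, read 245 with copper and 102 with water in 1 probe set (2.39-fold) but 419 and 349 in another. *vhp-1*, the phosphatase that inactivates KGB-1, likewise was 2.28-fold higher with copper in 1 probe set, with a copper signal of 239, but read 401 with copper and 410.1 with water in its other, which lies in the identifier block. The *kgb-1* probe set, also in that block, read 314 with copper and 129 with water. These 3 genes thus rest on dim or discordant probe sets. The kinase *mek-1*, which activates KGB-1 (2988 with copper and 2937 with water) and the p38 kinase *pmk-1* (401 and 286) were not past 2-fold.

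Among transcription factors, *zip-10*, of the bZIP family, had the largest rise, at 933 with copper and 181 with water (5.16-fold). It was 1 of 3 rises in 32 bZIP and AP-1 probe sets, whose median was 0.22. The others were *crh-1*, the worm CREB, at 310.0 with copper and 138 with water, and *fos-1*, the worm Fos, at 604 and 297, although a second *fos-1* probe set had a log2 ratio of 0.24. *jun-1*, the AP-1 partner of FOS-1, read 328 with copper and 191 with water. *pqm-1*, a zinc finger factor that acts in opposition to the insulin-regulated factor DAF-16, had 2373 with copper and 1067 with water (2.22-fold). Nuclear hormone receptors had 13 rises and no fall in 93 probe sets with a median of 0.06, and 5 of the rises were left with signals raised. *nhr-3* was read alike by 2 probe sets, at 1264 and 526 with copper and 557 and 233 with water, and so was *nhr-45*, at 272 and 226 with copper and 118 and 110.4 with water, the first of each pair being in the identifier block.

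Further rises fell outside these groups. The chemoreceptor-type genes *srr-4* and *srr-6* had 1232 and 708 with copper and 305 and 181 with water (4.04-fold and 3.92-fold). Among 35 probe sets for hedgehog-related and patched-related genes, a family with roles in molting, 4 rose (2 with signals raised) and none fell, including *ptr-8* at 650.2 with copper and 310.1 with water. *ptr-23* was past 2-fold in 1 of its 4 probe sets only. Transthyretin-related genes rose in 4 of 33 probe sets and fell in 1, with 16 ratios above 0 and a median of -0.03. *ttr-37* read 1230.4 with copper and 500.2 with water (2.46-fold), and the fall was *ttr-27*, at 62.5 and 143. *ost-1*, the worm SPARC of the basement membrane, was among the brightest risen transcripts, at 5645 with copper and 2584 with water (2.18-fold), but its second probe set read 3060.2 and 2949.8. Collagens had a median of 0.05, and 6 of 110 probe sets rose, of which 1 was left with signals raised. That one, of *col-97*, lies in the identifier block, and the other *col-97* probe set had a log2 ratio of 0.15.

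The largest falls were outside the identifier block. *F26A1.8* read 277 with copper and 3833 with water, 13.9-fold lower with copper, and a probe set shared with *F26A1.7* read 87.8 and 1171 (at least 11.7-fold lower). *C23G10.11* read 149.8 with copper and 1418 with water (9.46-fold lower) and *F45D3.3* read 181 and 1427 (7.88-fold lower). The functions of these genes are not given here. *dpf-6*, a peptidase of the dipeptidyl peptidase IV family, read 158 with copper and 759 with water (4.81-fold lower), and *F25E5.8* read 209 and 879 (4.21-fold lower).

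Some of the smaller falls were of genes for transport proteins. Of 61 probe sets for solute carriers, 5 fell and 1 rose, with a median of -0.04. Over all probe sets 1.08% fell and 2.11% rose, or 0.687% and 1.3% with signals raised. The lowest ratio was that of *slc-17.9*, at 4.91 with copper and 109 with water, which was below 2-fold with signals raised. Of the 5 falls, 3 were left with signals raised and 2 lie in the identifier block, those of *ent-1*, whose other probe set had a log2 ratio of 0.09, and *snf-3*. *oat-1*, an organic anion transporter, was lower in both its probe sets, at 143 and 96.6 with copper and 404 and 342 with water. *swt-3*, a sugar transporter of the SWEET family, read 235 with copper and 599.8 with water (2.56-fold lower). *amt-4*, an ammonium transporter, read 190.3 with copper and 483 with water (2.54-fold lower). The chloride channel gene *clh-1* read 324 with copper and 712 with water in 1 of its 5 probe sets, and the other 4 were lower by less than 2-fold. At the potassium channel gene *twk-1* the signals were 244 with copper and 503 with water.

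Of regulators that fell, *elt-3*, a GATA factor of the epidermis, was the 1 gene that passed 2-fold both in the block and outside it. Its signals were 137 with copper and 411 with water in the block and 119 and 342 outside. *hlh-30*, the worm TFEB that controls autophagy and lysosome genes, read 307 with copper and 722 with water in 1 probe set, while another had a log2 ratio of 0.03. *rfc-2*, a subunit of the clamp loader in DNA replication, and *ftt-2*, a 14-3-3 protein, were similar, with -1.62 and -1.05 in 1 probe set and 0.00 and 0.14 in the other. Large falls inside the block included *imp-2*, a presenilin-type protease, at 1392 with copper and 5642 with water, *gsp-2*, a catalytic subunit of protein phosphatase 1, at 2664 and 6655, and *cks-1*, a subunit of cyclin-dependent kinases, at 1049 and 2430.2. Their probe sets outside the block had log2 ratios of 0.28, 0.16 and -0.02.

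Core cell functions gave almost no 2-fold change. None was seen in 39 probe sets for the proteasome (median 0.03), 74 for the respiratory chain (0.01), 29 for the TCA and glyoxylate cycles (0.03) or 71 for histones (0.04). The shares over all probe sets were 2.11% rises and 1.08% falls, so the shorter of these lists can hold none without differing from the rest. Sperm genes (55 probe sets, median -0.02) and core germline genes (39, median -0.03) had no 2-fold change either. Cytosolic ribosomal proteins were above 0 in 84 of 91 probe sets with a median of 0.19 and 1 rise, but their median was 0.005 after quantile normalization. Over 74 gene lists, 101 of the 230 rises and 26 of the 118 falls belonged to some list, as did 2390 of all 10921 probe sets. The lists were chosen with earlier results of these data known, so these counts are description only.

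Risen genes were more frequent on chromosome V. Of 126 genes with 1 symbol that passed 2-fold with raised signals and could be placed on a chromosome, 46 (36.5%) lay on V, which holds 17.8% of the measured genes. The share of measured genes that rose was 3.16% on V, 0.763% on I and 1.54% over all chromosomes. In the RefSeq order of genes, 23 of the 126 were within 5 genes of another risen gene, in 10 groups. The share for the same number of genes drawn at random was not computed, so whether this is unusual was not tested. The longest run was *nlp-31*, *nlp-30*, *nlp-29* and *nlp-28*, 4 genes in a row on V. Direct neighbours were also *srr-6* and *srr-4* on V, *Y58A7A.4* and *Y58A7A.5* on V, *F57H12.6* and *ora-1* on IV, and *kreg-1* and *F53A9.1* on X.

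The mutant pair served as a separate measurement of most wild-type changes. The *kgb-1* probe set read 229 with copper and 179.5 with water in *kgb-1(km21)* worms, and whether it lies within the deletion was not analysed here, so it does not check the labels. Of the 142 rises with raised signals, 139 were measured in the mutant, 136 had the same sign and 81 passed 2-fold there, against 1.1% of all probe sets measured. Those not measured, *lys-3*, *nlp-24* and *tsp-1*, were below 100 on both mutant arrays, with *lys-3* at 15.4 with copper and 4.31 with water. The median log2 ratio of the 142 was 1.27 in wild type, and that of the 139 was 1.14 in *kgb-1*. With deposited signals, 97 of the 181 rises measured in *kgb-1* passed 2-fold there, against 1.36% of all probe sets measured, and 26 of the 100 falls, against 0.607%. *numr-1/numr-2* read 7165 with copper and 35.5 with water in *kgb-1*, and *zip-10* read 825 and 159.8.

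Falls divided by identifier in this comparison. Of the 32 falls outside the block, 19 passed 2-fold downward in *kgb-1* as well, against 0.408% of all probe sets measured, and their median there was -1.2. Of the 43 in the block, 2 did, with a median of -0.09. *F26A1.8* read 233 with copper and 3736 with water in *kgb-1*, whereas *imp-2*, in the block, read 5129 and 5090.2. *kreg-1*, a gene known for its regulation by KGB-1, read 1034 with copper and 176 with water in wild type, and 122 and 37.2 in *kgb-1*. The difference between strains was not tested, as each is 1 pair of arrays.

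**Figure D5:**
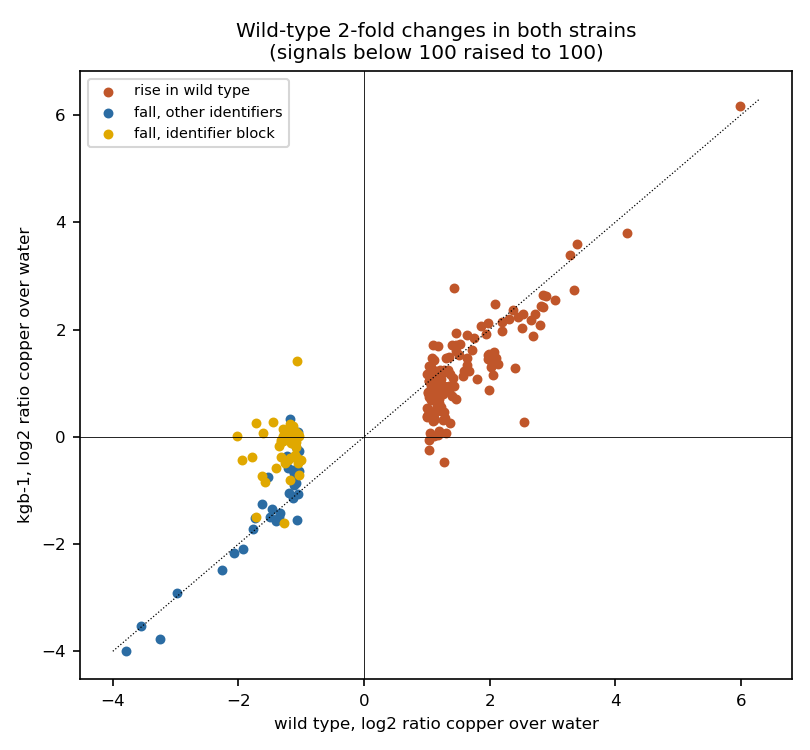
Log2 ratio of copper over water in wild type (x axis) and in kgb-1 (y axis) for wild-type 2-fold changes, with signals below 100 raised to 100 and a dotted line of equality. Rises and the falls outside the identifier block had kgb-1 medians of 1.14 and -1.2. Of these, 81 of 139 rises and 19 of 32 falls passed 2-fold in kgb-1, and some others lie near 0 there. Falls in the block lie around 0, with a kgb-1 median of -0.09.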

How the data were processed

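Adult samples (4 in all) were each hybridized to 1 Affymetrix C. elegans GeneChip, and a service company computed MAS5 signals, so the values the authors deposited are linear intensity values already scaled between arrays. The MAS5 version and scaling target are not given in the sources used here. Log2 ratios of copper over water were computed from the deposited intensities in numpy 2.4.6 and pandas 2.3.3 under Python 3.11.15, and plotted with matplotlib 3.10.9. The ratio and count steps were tested on simulated data.

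Probe sets were named from the platform annotation: 20766 of 22548 worm probe sets had 1 symbol, 887 several and 895 none. A probe set with several symbols counted in a list where all its genes belonged, and was named where the study's tables name it. RefSeq WBcel235 gave names, chromosomes and gene order.

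The probe sets, gene lists and tests were chosen with earlier results of these data known. Genes were named by rule: the 20 largest rises and falls with raised signals, up to 4 members of each list, all members of lists of 12 or fewer genes, the KGB-1-regulated *kreg* genes and tissue markers. The text also names some other 2-fold genes, picked with their values in view, and 3 symbol patterns that took genes of other kinds were corrected then. No column of other samples was used. Signal minimum, scaling, offset, fold threshold and identifier block were varied. Protein and promoter features were not analysed here.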

Additional observations from a re-analysis of the deposited data

Results flagged for a closer look

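Of the wild-type changes past 2-fold with raised signals, 7 moved the other way in *kgb-1* by a log2 ratio of more than 0.22. That is the SD of the hybridization controls in the *kgb-1* pair, and smaller opposite moves are not listed here. Each rests on 1 pair of arrays a strain and the difference was not tested. Of these, 5 have identifiers from 173000 to 175999. *hecd-1* had a log2 ratio of -1.06 in wild type and 1.41 in *kgb-1*, a difference of -2.48. *duo-3* had -1.72 and 0.26 (difference -1.98), *F07H5.13* had -1.45 and 0.28 (-1.73) and *efl-3* had -1.18 and 0.23 (-1.41). The fifth, *pccb-1*, a subunit of propionyl-CoA carboxylase, had 1.28 in wild type and -0.47 in *kgb-1* (1.75), while its other probe set had -0.04 in wild type. Outside the block, *F25H5.8* had -1.19 and 0.34 (-1.52) and *R12E2.14* had 1.03 and -0.24 (1.28).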

How the results depend on the processing

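No list median called past the control spread and no 2-fold gene named by the rule changed direction under the alternatives run. Of 125 named probe sets past 2-fold, 94 passed under all 4 of signals raised to 100, equal medians, quantile normalization and an offset of 32; 14, 14, 4 and 22 did not pass under each of these in turn. The 230 rises became 608 at a signal minimum of 50, 142 at 200, 2844 with no minimum, 142 with signals raised, 145 with the offset, 679 at 1.5-fold and 68 at 3-fold. The 118 falls became 268, 75, 1944 and 75 under the first 4 of these and 507 at 1.5-fold, 32 at 3-fold and 190 with equal medians. In settings chosen after seeing the data, requiring both signals at the minimum gave 120 rises and 67 falls, and leaving out the identifier block gave 63 falls. The median of the O-acyltransferases was 0.529 with no minimum, 0.62 with signals raised and 1.116 on plain identifiers. That of the antimicrobial *nlp* genes was 1.302 with no minimum, 1.256 with signals raised and 1.35 with the offset, and that of the caenacins 0.415 on plain identifiers. Of 74 list medians, 13 moved beyond the control spread under some of 9 alternatives. No paired analysis was possible because each group has 1 array. Signals near 100 limit the folds of dim transcripts, and 1 array a side cannot separate copper from array.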

Other observations

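Some transcripts outside the named families were also past 2-fold in wild type. *sulp-2*, of the sulfate permease family, read 408 with copper and 181 with water, and *dgat-2*, a diacylglycerol acyltransferase, read 491 and 229. *kpc-1*, a proprotein convertase, read 671 with copper and 309 with water, but that probe set lies in the identifier block and another had a log2 ratio of 0.39. *sqr-1*, a sulfide quinone oxidoreductase, read 193 with copper and 45.4 with water, at least 1.93-fold. *acs-7*, an acyl-CoA synthetase, read 126 with copper and 274 with water, and *mfsc-1*, of the major facilitator family, read 837 and 1754.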
